A study of Mus musculus with 8 samples.

Results

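Embryoid bodies of 2 wild-type sets, PR16wt-EB and PR16EXON4wt-EB, were compared at day 9 of differentiation from mouse embryonic stem cells, with no knockout in either set. Each set had 2 RNA-seq libraries, so 4 of the 8 libraries of the series entered the comparison. A locus was kept if it had a gene name and reached a value of 10 in 2 or more of these 4 libraries, which left 16101 of 52281 named loci. The series itself asked which genes depend on PRDM16 or on its PR domain. In it, PR16wt-EB is the control of PR16KO-EB, whose genotype is labelled PRDM16 KO, and PR16EXON4wt-EB is the control of PR16EXON4KO-EB, labelled PR domain KO. Both control groups carry the genotype WT and share the C57BL/6 background, the medium, the day and the library protocol. The labels name no stem cell line, clone, passage or date, so the set cannot be told apart from any of these. They also do not say whether the replicates of a set came from separate cultures, and in that case the p-values below cover only differences among these libraries, possibly technical ones.

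Embryoid bodies are aggregates in which embryonic stem cells leave pluripotency and form derivatives of the germ layers without an added pattern. An outer layer becomes visceral endoderm, a yolk sac tissue that takes up and secretes plasma proteins. Mesoderm inside gives beating heart muscle, endothelium and the first, primitive wave of blood cells, and ectoderm can give neural progenitors. Cells that have not yet differentiated keep genes of the primed epiblast, the state that precedes gastrulation. In bulk RNA of such a mixture, fewer cells of a type and less RNA per cell cannot be told apart.

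Levels are fragments counted per locus and scaled by a size factor for each library, called normalised fragments here. A difference is always PR16EXON4wt minus PR16wt on the log2(value + 1) scale, given ± SE, so that 1 is close to a doubling, and the scale understates changes of low genes. A locus counted as called at a Benjamini-Hochberg adjusted p below 0.05 over all 16101 loci in limma. Libraries held 7138747 and 8142365 fragments on named loci in PR16wt and 7588410 and 7417089 in PR16EXON4wt. The 10 most abundant loci took 3.70 and 3.81% of these fragments in PR16wt and 4.64 and 4.45% in PR16EXON4wt.

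The wild-type sets differed at many loci and by amounts well beyond the spread between replicates. Of all kept loci 33.8% were called, with 2692 (16.7%) higher in PR16EXON4wt and 2743 (17.0%) lower. Most of these differences were small, with 3375 called loci (62.1%) under 1.5-fold. Called differences of 2-fold or more numbered 470 higher (2.92%) and 606 lower (3.76%). Between replicates of 1 set, 238 loci in PR16wt and 256 in PR16EXON4wt differed by 2-fold or more. Between a library of one set and a library of the other it was 1275 to 1361. The chi-square of fragments per degree of freedom was 1.55 and 1.39 between replicates and 16.1 to 17.4 between sets. The plot of the spread between library pairs shows both.

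**Figure D1:**
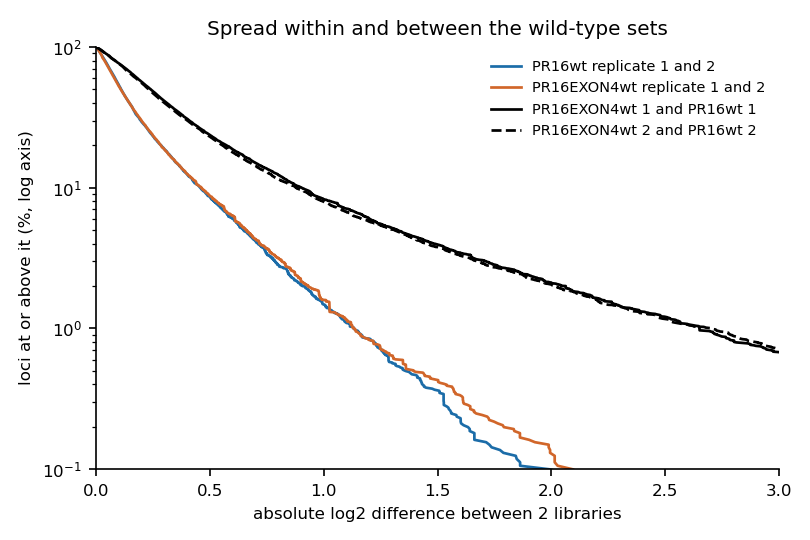
Percent of kept loci (y axis, log scale) whose absolute log2 difference between 2 libraries was at or above the value on the x axis. Coloured lines compare the replicates of a set and black lines compare libraries of different sets; 1.48 and 1.59% of loci reached 2-fold between replicates, and 8.29 and 7.92% did in the 2 comparisons between sets that are drawn.

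Prdm16, the zinc finger gene targeted in the knockouts of this series (ENSMUSG00000039410.16, a protein-coding gene at chromosome 4, 154316125 to 154636873, minus strand), was low in both sets. Positions here and below are GRCm38 from GENCODE M21. Its values were 24.4 and 26.3 in PR16wt and 44.6 and 22.7 in PR16EXON4wt, from 23, 28, 44 and 22 fragments. The PR16wt libraries lay within the range of the PR16EXON4wt libraries. The difference of 0.32 ± 0.50 (adjusted p = 0.671) was not called. Mecom, the closest relative of Prdm16, had 316 and 310.4 in PR16wt and 534 and 463 in PR16EXON4wt. Both PR16EXON4wt libraries were above both PR16wt libraries, and Mecom was higher by 0.67 ± 0.09 (adjusted p = 6.27e-07). Among the 12 kept genes of the PRDM family 3 were higher and 2 lower, with a median of 0.13. Prdm10 (372 and 342 in PR16wt and 209 and 207 in PR16EXON4wt) was lower by -0.77 ± 0.10 (adjusted p = 2.41e-07). The call for Prdm6, the other lower member (-0.23 ± 0.08), was lost without any 1 of the 4 libraries, at -0.26 to -0.20.

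Gene lists for the lineages of embryoid bodies separated into groups with opposite differences. Epiblast and visceral endoderm genes were mostly lower in PR16EXON4wt, while heart muscle, macrophage, endothelial, mesenchymal matrix and immediate early genes were mostly higher. Over all kept loci the median difference was -0.00176. A list is described by the members called in each direction and by its median, to be read against the 16.7% and 17.0% called over all loci. Loci that reached a value of 10 in libraries of only 1 set had to differ in level, and 311 loci were kept through PR16wt alone and 177 through PR16EXON4wt alone. Where such loci are members, their number is given. In 6 lists for which no member was called in one direction (primed epiblast and streak, plasma protein, Nodal and ribosome biogenesis genes for higher, contraction and macrophage genes for lower), edgeR, limma-voom and DESeq2 also called none. At an unadjusted p below 0.05 limma then had 2 plasma protein genes and 1 ribosome biogenesis gene, and none of the other 4 lists. On the deposited FPKM values, which are scaled by transcript length, 1763 loci were called in place of 5435, and 30 of 176 called genes for which values are given here were not called, all in the same direction. With a minimum fold of 1.5 (limma's treat test, passed by 2.03% of all loci as higher and 2.61% as lower), 16 contraction, 18 immediate early and 8 matrix genes were higher, and 1 each of the endothelial, epicardial and cardiac transcription factor lists.

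**Figure D2:**
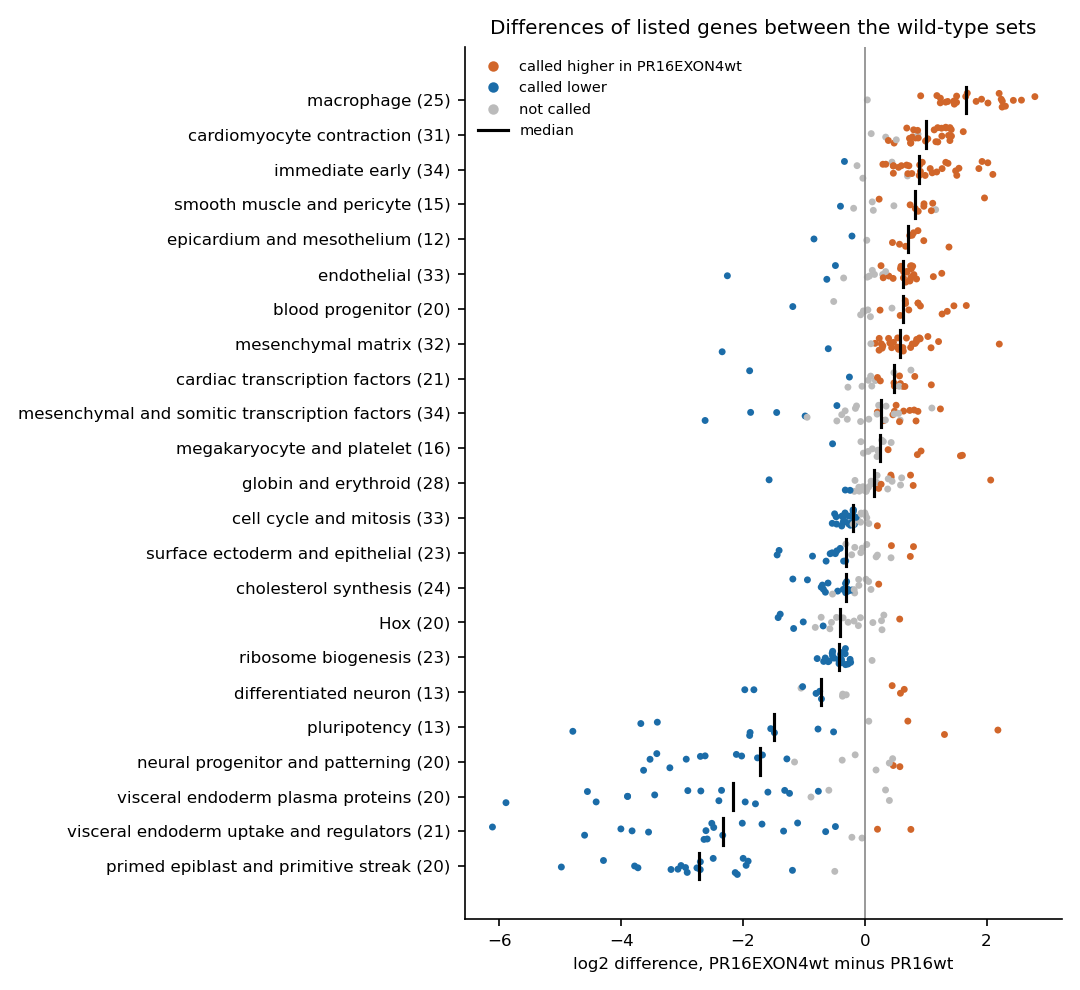
Log2 difference between the sets (x axis, PR16EXON4wt minus PR16wt) for each kept member of 23 gene lists, with the number of kept members in brackets. Orange points were called higher in PR16EXON4wt, blue points lower and grey points not called, and black bars are list medians, which run from -2.73 for primed epiblast and streak genes to 1.66 for macrophage genes.

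Genes of pluripotency and the primed epiblast were lower in PR16EXON4wt than in PR16wt. Pou5f1 (ENSMUSG00000024406.16, chromosome 17, 35506018 to 35510772, plus strand), which encodes the pluripotency factor Oct4, had 272 and 262 in PR16wt and 9.13 and 8.26 in PR16EXON4wt normalised fragments. It was lower by -4.79 ± 0.22 (adjusted p = 1.29e-17). Nanog, another core pluripotency factor, had 85.9 and 83.7 in PR16wt and 8.11 and 6.19 in PR16EXON4wt (-3.41 ± 0.33). Lin28a, an RNA-binding protein of undifferentiated cells that blocks let-7 maturation, had 2030.3 and 1983 in PR16wt and 553 and 535 in PR16EXON4wt (-1.88 ± 0.06). For each of these genes the libraries of PR16wt were several times above both of PR16EXON4wt. Of 13 kept pluripotency genes among 21 listed, 9 were lower and 3 higher, with a median of -1.48. Of these, 3 were kept through PR16wt alone, Pou5f1 and Nanog among them, and 1 through PR16EXON4wt alone. The 9 kept on values of both sets held 6 lower and 2 higher members, with a median of -0.767. The higher members were Klf2 (279 and 247 in PR16wt and 660.2 and 645 in PR16EXON4wt), Klf4 (191 and 179.6 in PR16wt and 290.0 and 317 in PR16EXON4wt) and Fgf4 (8.48 and 3.76 in PR16wt and 31.4 and 27.9 in PR16EXON4wt). Klf2 and Klf4 are Krüppel-like factors that many differentiated cells, such as endothelium, also express.

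Primed epiblast and primitive streak genes followed the same direction. Dnmt3b, the de novo DNA methyltransferase of the epiblast, had 1278 and 1234 in PR16wt and 170.4 and 161 in PR16EXON4wt and differed by -2.91 ± 0.08 (adjusted p = 6.51e-23). Otx2, a homeobox gene of the epiblast and later the forebrain, had 292 and 277 in PR16wt and 72.0 and 69.1 in PR16EXON4wt (-1.996 ± 0.19). Eomes, a T-box factor of the streak and the visceral endoderm, had 148 and 191 in PR16wt and 8.11 and 7.22 in PR16EXON4wt and differed by -4.29 ± 0.37 (adjusted p = 5.69e-11). Of 20 kept members among 27 listed, 19 were lower and none higher by limma's call, but 11 of the 20, Eomes among them, had been kept through PR16wt alone. The 9 kept on values of both sets were all lower, with a median of -2.49. The member not called was Tbx6 (10.6 and 10.3 in PR16wt and 7.10 and 7.22 in PR16EXON4wt).

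Nodal signalling keeps the epiblast primed and patterns the streak, and its core genes were lower. Nodal, the ligand, had 114 and 105 in PR16wt and 19.3 and 8.26 in PR16EXON4wt (-3.02 ± 0.32). Foxh1, the transcription factor through which its Smads act, had 277 and 257 in PR16wt and 58.8 and 49.5 in PR16EXON4wt and differed by -2.28 ± 0.17 (adjusted p = 1.91e-12). Cfc1, a co-receptor of the EGF-CFC family, had 82.7 and 89.3 in PR16wt and 13.2 and 15.5 in PR16EXON4wt (-2.51 ± 0.29). Fragments of the inhibitors Lefty1 and Lefty2 fell on 1 locus, with 118 and 94.1 in PR16wt and 13.2 and 10.3 in PR16EXON4wt. Of 14 kept genes of the pathway 8 were lower and none higher, with 2 kept through PR16wt alone, and 1 was higher without PR16wt replicate 1 or PR16EXON4wt replicate 1. The 12 kept on values of both sets held 6 lower members and none higher, with a median of -0.302. The convertase Furin, which has wider roles, was not called (0.06 ± 0.05). The type II receptor Acvr2b was lower by -0.44 ± 0.07 (adjusted p = 1.14e-05).

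**Figure D3:**
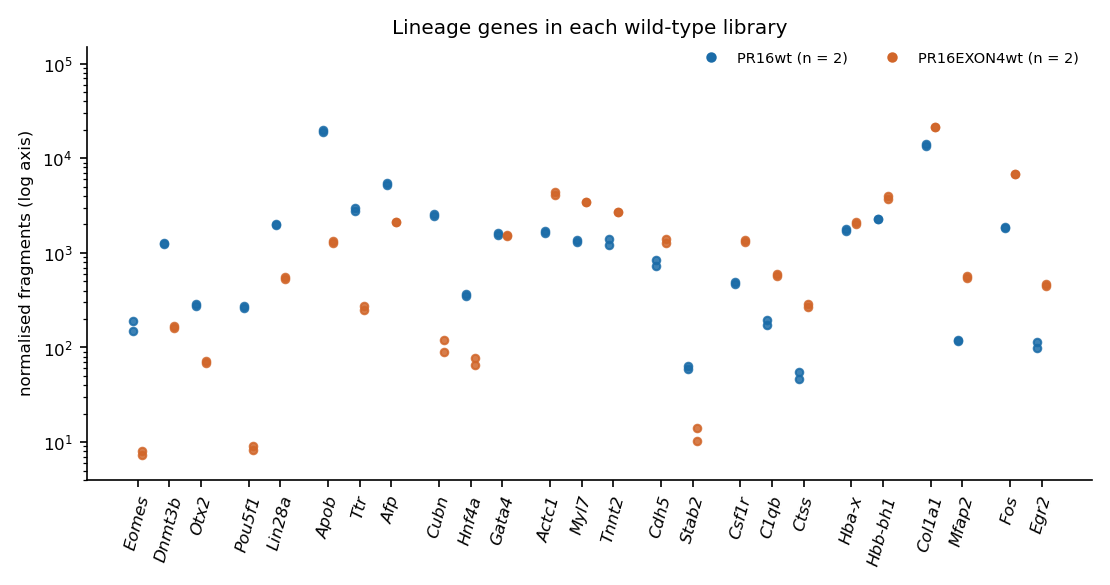
Normalised fragments (y axis, log scale) of 25 lineage genes in each wild-type library; each point is 1 library, blue for PR16wt and orange for PR16EXON4wt, and 2 points of a set often overlap. Epiblast and visceral endoderm genes on the left are lower in PR16EXON4wt, and heart, endothelial, macrophage, globin, matrix and immediate early genes are higher, apart from Gata4, which was not called, and Stab2, which was lower.

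More neural genes were called lower than higher in PR16EXON4wt, but many of the kept neural progenitor genes had passed through PR16wt alone. The share of neural progenitor genes called higher was under the 16.7% over all loci. Zic2 and Sox1, transcription factors of the neural plate, were lower in PR16EXON4wt. Zic2 had 122 and 149 in PR16wt and 18.3 and 21.7 in PR16EXON4wt (-2.70 ± 0.30), and Sox1 had 55.1 and 41.4 in PR16wt and 4.06 and 2.06 in PR16EXON4wt (-3.63 ± 0.55). Nes, the intermediate filament nestin, had 851 and 853 in PR16wt and 1285 and 1260.2 in PR16EXON4wt and was higher by 0.58 ± 0.06 (adjusted p = 1.86e-09). Pax6, a paired-box factor of neural tube and eye, had 107 and 131 in PR16wt and 159 and 169 in PR16EXON4wt and was also higher (0.47 ± 0.15), a call lost without PR16wt replicate 1 (0.33) or PR16EXON4wt replicate 2 (0.43). Of 20 kept members among 30 listed, 12 were lower and 2 higher, with a median of -1.72. Of the 20, 9 were kept through PR16wt alone, Sox1 among them. The 11 kept on values of both sets held 4 lower and 2 higher members, with a median of -0.157. Without PR16wt replicate 1 or PR16EXON4wt replicate 2, 1 of the 20 was higher. Lhx2 (169.6 and 209 in PR16wt and 172 and 165 in PR16EXON4wt) and Irx3 (169.6 and 171 in PR16wt and 205 and 184 in PR16EXON4wt) were not called. Of 13 kept neuron genes 6 were lower and 3 higher, with 3 kept through PR16wt alone, and 3 were lower without PR16wt replicate 2 or PR16EXON4wt replicate 2, and 1 higher without PR16EXON4wt replicate 1. The 10 neuron genes kept on values of both sets held 4 lower and 3 higher members, with a median of -0.363. Crmp1, a cytoplasmic protein of growing axons, had 142 and 141 in PR16wt and 84.2 and 84.6 in PR16EXON4wt (-0.74 ± 0.17), and the LIM factor Isl1, which also marks cardiac progenitors, had 160.1 and 148 in PR16wt and 241 and 222 in PR16EXON4wt (0.59 ± 0.14).

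Visceral endoderm genes were lower in PR16EXON4wt, including abundant transcripts. Apob (ENSMUSG00000020609.14, chromosome 12, 7977648 to 8016835, plus strand), the structural protein of lipoproteins that this tissue secretes, had 19038 and 19824 in PR16wt and 1279 and 1334 in PR16EXON4wt normalised fragments. The libraries of a set were within a few percent of each other, and PR16EXON4wt was lower by -3.89 ± 0.04 (adjusted p = 6.75e-34). Apom, a small apolipoprotein, had 1458 and 1376 in PR16wt and 66.9 and 52.6 in PR16EXON4wt (-4.55 ± 0.08). Ttr, the carrier of thyroid hormone and retinol-binding protein, had 2792 and 2979.6 in PR16wt and 250.5 and 277 in PR16EXON4wt (-3.45 ± 0.07). Rbp4, the retinol carrier itself, had 4858 and 4779.7 in PR16wt and 1186 and 1287 in PR16EXON4wt (-1.96 ± 0.04). Apoe, which macrophages also make, had 9964 and 10460.0 in PR16wt and 4233 and 4444 in PR16EXON4wt and was lower by -1.23 ± 0.04 (adjusted p = 3.99e-22). Of 20 kept plasma protein genes among 23 listed, 16 were lower and none higher, with a median of -2.16 and 5 kept through PR16wt alone. The 15 kept on values of both sets held 11 lower members and none higher, with a median of -1.79. The members not called included Vtn, which encodes vitronectin (67.9 and 70.5 in PR16wt and 86.2 and 98.0 in PR16EXON4wt), and Serpina1b (72.1 and 68.7 in PR16wt and 85.2 and 93.9 in PR16EXON4wt), a gene with near-identical copies whose fragments the counting could have split.

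The uptake apparatus of the same tissue was lower too, while the regulators Gata4, Gata6 and Sox7 were not. Cubn, the receptor cubilin, had 2443 and 2598 in PR16wt and 89.2 and 119 in PR16EXON4wt and differed by -4.60 ± 0.10 (adjusted p = 2.32e-26). Amn, which encodes the membrane anchor of cubilin, had 161 and 150.5 in PR16wt and 0 and 4.13 in PR16EXON4wt, so it was near 0 in PR16EXON4wt. Dab2, the endocytic adaptor, had 3770.2 and 3819.5 in PR16wt and 1835 and 1703 in PR16EXON4wt (-1.10 ± 0.04). Mttp, which loads lipid onto apolipoprotein B, had 1378 and 1401 in PR16wt and 226 and 235 in PR16EXON4wt (-2.59 ± 0.06), and Vil1, the brush border protein villin, 440.0 and 442 in PR16wt and 77.1 and 79.5 in PR16EXON4wt (-2.48 ± 0.10). Gata4, a zinc finger regulator shared by endoderm and heart, had 1613 and 1539 in PR16wt and 1525 and 1529.5 in PR16EXON4wt and was not called (-0.04 ± 0.05). Gata6, its relative, had 1500.2 and 1457 in PR16wt and 1684 and 1737 in PR16EXON4wt and was higher by 0.21 ± 0.05 (adjusted p = 0.000625). Sox7, expressed in endoderm and in endothelium, had 57.3 and 61.1 in PR16wt and 102 and 99.1 in PR16EXON4wt (0.76 ± 0.19). Of 21 kept members among 22 listed, 17 were lower and 2 higher, with a median of -2.33 and 2 kept through PR16wt alone, Amn among them. The 19 kept on values of both sets held 15 lower and 2 higher members, with a median of -2.01. The knockouts of the series were measured beside these sets. Cubn had 5653 and 5765 in PR16KO and 197 and 151 in PR16EXON4KO, so that for Cubn each knockout was on its own control's side of the gap between the sets. That was not so for all genes that differed between the sets. Acta2, a smooth muscle gene, had 4840 and 4776 in PR16KO and 4156 and 4137 in PR16EXON4KO. Egr2, an immediate early gene, had 311 and 290 in PR16KO and 321 and 304 in PR16EXON4KO.

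The motif GTTAAT, then any base, then ATT, was searched on both strands in the 250 bases upstream of RefSeq transcription starts (GRCm38.p6) after the differences had been seen. It was found in 17 of 1861 genes called lower (0.914%), 1 of 1766 called higher (0.0566%) and 25 of 9829 kept genes with a promoter (0.254%). Among genes that reached a value of 10 in both sets it was found in 12 of 1721 called lower (0.697%), 1 of 1714 called higher (0.0583%) and 20 of 9577 in all (0.209%). The windows below belong to 5 of the lower genes with such a match, chosen after their values were seen, with the match in capitals, read on the strand of the gene. A match in capitals that starts with AAT is the motif on the other strand, and it describes letters, not a bound site.
Igfbp1: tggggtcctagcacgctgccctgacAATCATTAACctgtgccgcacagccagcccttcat
Npc1l1: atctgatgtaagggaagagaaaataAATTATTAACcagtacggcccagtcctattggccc
Habp2: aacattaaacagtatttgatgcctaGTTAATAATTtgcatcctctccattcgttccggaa
Cdhr2: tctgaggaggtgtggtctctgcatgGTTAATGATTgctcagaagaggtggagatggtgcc
Afp: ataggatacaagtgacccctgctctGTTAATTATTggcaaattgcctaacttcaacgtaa
The windows lie at chr11:7197702-7197761 (plus strand) for Igfbp1, chr11:6230255-6230314 (minus strand) for Npc1l1, chr19:56287821-56287880 (plus strand) for Habp2, chr13:54701384-54701443 (plus strand) for Cdhr2 and chr5:90490584-90490643 (plus strand) for Afp. Igfbp1, a secreted protein that binds insulin-like growth factors, had 126 and 115 in PR16wt and 7.10 and 1.03 in PR16EXON4wt. Npc1l1, the intestinal cholesterol transporter, had 68.9 and 75.2 in PR16wt and 4.06 and 3.10 in PR16EXON4wt, and Cdhr2, a brush border cadherin, had 39.2 and 45.1 in PR16wt and 10.1 and 4.13 in PR16EXON4wt. Habp2, a plasma protease, had 272 and 262 in PR16wt and 48.7 and 34.1 in PR16EXON4wt. Afp, the fetal plasma protein of yolk sac and liver, had 5158 and 5438 in PR16wt and 2128 and 2132 in PR16EXON4wt and differed by -1.31 ± 0.04 (adjusted p = 6.77e-23). Igfbp1 and Npc1l1 were kept through PR16wt alone.

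Heart muscle genes were higher in PR16EXON4wt by about a doubling and did so together. Fragments of the neighbouring myosin heavy chain genes Myh6 and Myh7 fell on 1 locus, with 2329 and 2434 in PR16wt and 6052 and 6529 in PR16EXON4wt and a difference of 1.40 ± 0.05 (adjusted p = 3.25e-20). Actc1 (ENSMUSG00000068614.7, chromosome 2, 114047282 to 114053548, minus strand), cardiac actin, had 1636 and 1686 in PR16wt and 4349.6 and 4048 in PR16EXON4wt (1.34 ± 0.05). Myl7, the atrial myosin light chain, had 1301 and 1352 in PR16wt and 3416 and 3473 in PR16EXON4wt (1.38 ± 0.05), and Tnnt2, cardiac troponin T, 1226 and 1392 in PR16wt and 2685 and 2672 in PR16EXON4wt (1.04 ± 0.06). Slc8a1, the sodium-calcium exchanger, had 813 and 841 in PR16wt and 1867 and 1936 in PR16EXON4wt (1.20 ± 0.06). Of 31 kept contraction genes among 34 listed, 27 were higher and none lower, with 1 kept through PR16EXON4wt alone and a median of 1.00. In all 31, the latter member included, both PR16EXON4wt libraries were above both PR16wt libraries, which held for 32.4% of all kept loci. The members not called were Atp2a2, the calcium pump (2607 and 2711 in PR16wt and 2867 and 2858 in PR16EXON4wt), Nppa (12.7 and 5.64 in PR16wt and 13.2 and 20.6 in PR16EXON4wt, called without PR16wt replicate 1, at 1.40), Nppb (12.7 and 15.05 in PR16wt and 16.2 and 19.6 in PR16EXON4wt) and Pln (28.6 and 38.6 in PR16wt and 49.7 and 46.4 in PR16EXON4wt). Skeletal muscle genes were nearly absent, with 2 of 12 listed genes kept, Tnnt1 (72.1 and 32.0 in PR16wt and 40.6 and 36.1 in PR16EXON4wt) and Tnnt3 (29.7 and 32.0 in PR16wt and 23.3 and 29.9 in PR16EXON4wt), neither of which was called by limma, edgeR, limma-voom or DESeq2. Without PR16wt replicate 2, Tnnt1 was called lower (-0.90).

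Transcription factors of the heart were called higher in part. Myocd, the muscle co-activator myocardin, had 126 and 149.5 in PR16wt and 327 and 265 in PR16EXON4wt and differed by 1.09 ± 0.15 (adjusted p = 4.97e-07). Tbx5, a T-box factor of the atria and left ventricle, had 65.7 and 77.1 in PR16wt and 133 and 121 in PR16EXON4wt (0.82 ± 0.15), Mef2c 587 and 595 in PR16wt and 954 and 875 in PR16EXON4wt (0.63 ± 0.07) and Tbx20 826 and 778 in PR16wt and 1112 and 1126 in PR16EXON4wt (0.48 ± 0.06). Of 21 kept members 10 were higher, 9 were not called and 2 were lower, with a median of 0.48. The lower ones were Hand1 (931 and 923 in PR16wt and 783 and 774 in PR16EXON4wt) and Tbx3 (236 and 228 in PR16wt and 69.97 and 54.7 in PR16EXON4wt), which pluripotent cells also express. Smooth muscle genes were higher as well, with 9 of 15 kept members higher, 1 lower and a median of 0.83. Acta2, smooth muscle actin, had 4136 and 4331 in PR16wt and 7656 and 7403 in PR16EXON4wt (0.83 ± 0.04), and Tagln, the actin-binding protein transgelin, 1192 and 1193 in PR16wt and 2317 and 2358 in PR16EXON4wt (0.97 ± 0.05). The lower member was Notch3, the Notch receptor of mural cells (1672 and 1631 in PR16wt and 1242 and 1263 in PR16EXON4wt).

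Genes of the epicardium, the covering layer of the heart, were among the higher groups. Upk3b, a mesothelial membrane protein, had 545 and 562 in PR16wt and 937 and 964 in PR16EXON4wt (0.78 ± 0.06), and Bnc1, a zinc finger factor of mesothelium, 669 and 689 in PR16wt and 1132 and 1136 in PR16EXON4wt (0.74 ± 0.05). Aldh1a2, which makes retinoic acid there, had 73.2 and 88.4 in PR16wt and 162 and 155 in PR16EXON4wt and differed by 0.97 ± 0.13 (adjusted p = 4.57e-07). Of 12 kept members 9 were higher and 2 lower, with a median of 0.70 and 1 kept through PR16EXON4wt alone. The 2 lower ones became 1 without PR16wt replicate 1 or PR16EXON4wt replicate 2, and none without either of the other 2 libraries.

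Mesenchymal matrix genes were higher across the list by less than a doubling. Col1a1, a chain of type I collagen, had 14213 and 13490.0 in PR16wt and 21643 and 21333 in PR16EXON4wt (0.63 ± 0.03), and Col5a2 3808 and 3837 in PR16wt and 8119 and 8149 in PR16EXON4wt (1.09 ± 0.03). Mfap2, a microfibril glycoprotein, had 117 and 121 in PR16wt and 541 and 568 in PR16EXON4wt and differed by 2.21 ± 0.10 (adjusted p = 5.05e-18). Dcn, the proteoglycan decorin, had 1234 and 1344 in PR16wt and 2344 and 2462 in PR16EXON4wt (0.90 ± 0.05). Of 32 kept members among 34 listed, 29 were higher and 2 lower, with a median of 0.58 and 1 kept through PR16wt alone. The lower ones were Fbln1, a fibulin (2005 and 2109.6 in PR16wt and 1322 and 1394 in PR16EXON4wt), and Thy1 (20.1 and 21.6 in PR16wt and 1.01 and 8.26 in PR16EXON4wt), whose call was lost without PR16EXON4wt replicate 1 (-1.24). Basement membrane genes were split, with 13 of 19 higher and 4 lower and a median of 0.20; on FPKM values 4 were higher and 1 lower. Lama1, the laminin chain of early embryonic basement membrane, had 1265 and 1376 in PR16wt and 677 and 686 in PR16EXON4wt and was lower by -0.95 ± 0.06 (adjusted p = 1.27e-13), while Lama4, the chain of vessels, had 295 and 331 in PR16wt and 512 and 481 in PR16EXON4wt and was higher (0.67 ± 0.09). Nid1, which links laminin to collagen IV, had 2221 and 2116 in PR16wt and 3293 and 3275 in PR16EXON4wt (0.60 ± 0.04).

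More mesenchymal and somitic transcription factors were called higher than lower, and the share called lower was under the 17.0% over all loci. Of 34 kept members among 41 listed, 12 were higher and 5 lower, with 2 kept through PR16wt alone and 1 through PR16EXON4wt alone. The 12 became 5, 7 and 6 without PR16wt replicate 1, PR16EXON4wt replicate 1 and PR16EXON4wt replicate 2, and the 5 became 3 without PR16EXON4wt replicate 2. Tcf21, a factor of visceral mesenchyme, had 103 and 113 in PR16wt and 189.6 and 207 in PR16EXON4wt (0.87 ± 0.12). Foxf2 (48.8 and 61.1 in PR16wt and 18.3 and 20.6 in PR16EXON4wt) and Msx2 (116 and 144 in PR16wt and 64.9 and 65.0 in PR16EXON4wt) were lower. Of 20 kept Hox genes among 39 listed, 5 were lower and 1 higher. The lower ones were posterior genes and the Hoxd3 and Hoxd4 locus, with 33.9 and 27.3 in PR16wt and 10.1 and 11.4 in PR16EXON4wt for Hoxa10. Without PR16wt replicate 1, 2 were lower, and without PR16EXON4wt replicate 2, 1 was. Hoxb4, the higher one, had 54.1 and 71.5 in PR16wt and 94.3 and 91.9 in PR16EXON4wt (0.57 ± 0.17), a call lost without PR16wt replicate 1 (0.38) or PR16EXON4wt replicate 1 (0.56).

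Endothelial genes were mostly higher. Cdh5, the adhesion molecule VE-cadherin, had 839.7 and 734 in PR16wt and 1279 and 1395 in PR16EXON4wt and differed by 0.77 ± 0.07 (adjusted p = 2.8e-10). Pecam1 had 422 and 444 in PR16wt and 636 and 674 in PR16EXON4wt (0.60 ± 0.07), the receptor Tie1 504 and 500.4 in PR16wt and 790.0 and 776 in PR16EXON4wt (0.64 ± 0.07), and Kdr, the main receptor for VEGF, 1871 and 1888 in PR16wt and 2223 and 2304 in PR16EXON4wt (0.27 ± 0.05). All 33 listed genes were kept, 23 higher and 3 lower, with a median of 0.64. Flt1, a VEGF receptor that traps the ligand, had 938 and 947 in PR16wt and 592 and 633 in PR16EXON4wt and was lower by -0.62 ± 0.07 (adjusted p = 1.7e-08). Stab2, a scavenger receptor, had 59.4 and 64.0 in PR16wt and 14.2 and 10.3 in PR16EXON4wt and was lower by -2.26 ± 0.23 (adjusted p = 2.04e-09). Its relative Stab1, which macrophages also express, had 584 and 544 in PR16wt and 1351 and 1361 in PR16EXON4wt and was higher (1.27 ± 0.06). The other lower gene was Sox17 (153 and 164 in PR16wt and 97.4 and 131 in PR16EXON4wt), which endoderm shares with endothelium, a call lost without PR16EXON4wt replicate 1 (-0.27), PR16wt replicate 1 (-0.53) or PR16wt replicate 2 (-0.43). On FPKM values 11 endothelial genes were higher and none lower (1 and 1 with a minimum fold of 1.5), and Kdr, Pecam1, Flt1, Stab1 and Stab2 were not called.

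Macrophage genes had the highest median of the 48 lists. Csf1r (ENSMUSG00000024621.16, chromosome 18, 61100598 to 61132149, plus strand), the receptor for the macrophage growth factor, had 496 and 473 in PR16wt and 1375 and 1316 in PR16EXON4wt and differed by 1.47 ± 0.05 (adjusted p = 3.8e-20). Lyz2, lysozyme of myeloid cells, lies on a locus that also carries its near-identical neighbour Lyz1, with 144 and 151 in PR16wt and 896 and 873 in PR16EXON4wt (2.57 ± 0.07). Ctss, the lysosomal protease cathepsin S, had 55.1 and 46.1 in PR16wt and 267 and 290.0 in PR16EXON4wt (2.44 ± 0.11), and C1qb, a chain of complement C1q, 173 and 198 in PR16wt and 598 and 573 in PR16EXON4wt (1.66 ± 0.08). Of 25 kept members among 26 listed, 24 were higher and none lower, with a median of 1.66 and 1 kept through PR16EXON4wt alone. The member not called was Lyve1, shared with lymphatic endothelium (28.6 and 15.05 in PR16wt and 22.3 and 20.6 in PR16EXON4wt). Beside these sets, Csf1r had 1092 and 1112 in PR16KO and 2741 and 2732 in PR16EXON4KO, and Ctss had 171 and 163 in PR16KO and 658 and 630.3 in PR16EXON4KO.

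Other blood genes were called higher, called lower or not called. Laptm5, a lysosomal protein of leukocytes, had 187 and 192 in PR16wt and 524 and 450.0 in PR16EXON4wt (1.36 ± 0.08), and Spi1, the transcription factor PU.1 of myeloid cells, 69.97 and 72.4 in PR16wt and 189 and 159 in PR16EXON4wt (1.27 ± 0.13). Of 20 kept blood progenitor genes 12 were higher and 1 lower, with a median of 0.62. Kit (423 and 482 in PR16wt and 442 and 495 in PR16EXON4wt), Tal1 (114 and 119 in PR16wt and 135 and 116 in PR16EXON4wt) and Itga2b (528 and 520.1 in PR16wt and 483 and 552 in PR16EXON4wt) were not called, and Myb, which definitive but not primitive blood needs, was lower at 20.1 and 13.2 in PR16wt and 6.08 and 7.22 in PR16EXON4wt, a member kept through PR16wt alone whose call was lost without any 1 of the 4 libraries, at -1.47 to -0.89. Among 16 platelet genes 5 were higher and 1 lower, the latter lost without PR16wt replicate 1. Pf4 had 219 and 192 in PR16wt and 622 and 603 in PR16EXON4wt and differed by 1.57 ± 0.08 (adjusted p = 6.99e-16), and its chemokine neighbour Ppbp had 57.3 and 49.8 in PR16wt and 172 and 157 in PR16EXON4wt (1.604 ± 0.20). Of 15 listed mast cell and granulocyte genes 3 were kept and none called by limma, while 1 was lower by edgeR, by limma-voom or by limma without PR16EXON4wt replicate 2.

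Erythroid genes showed no common direction, but embryonic beta-type globins were higher. Hbb-bh1, an embryonic beta-like globin, had 2289 and 2269.5 in PR16wt and 4016 and 3672 in PR16EXON4wt and differed by 0.75 ± 0.04 (adjusted p = 1.72e-15). Hbb-y had 2790.5 and 2782 in PR16wt and 3814 and 3691 in PR16EXON4wt (0.43 ± 0.04), and the embryonic alpha-like globin Hba-x 1798 and 1713 in PR16wt and 2099 and 2017 in PR16EXON4wt (0.23 ± 0.04). Of 28 kept members among 32 listed, 7 were higher and 3 lower, with a median of 0.15. The adult-type Hbb-bs, kept through PR16EXON4wt alone, had 2.12 and 4.70 in PR16wt and 19.3 and 14.4 in PR16EXON4wt. Car2, carbonic anhydrase 2, was lower, with 664 and 722 in PR16wt and 240.3 and 225 in PR16EXON4wt (-1.57 ± 0.08). Tfrc, the transferrin receptor, was close to equal at 3029 and 3139.5 in PR16wt and 3153 and 3119 in PR16EXON4wt.

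Immediate early genes, which cells induce within minutes of a stimulus, were higher in PR16EXON4wt. Fos (ENSMUSG00000021250.13, chromosome 12, 85473890 to 85477273, plus strand), a subunit of the factor AP-1, had 1833 and 1898 in PR16wt and 6840.3 and 6846 in PR16EXON4wt and differed by 1.87 ± 0.04 (adjusted p = 1.26e-26). Egr1, a zinc finger factor, had 3347 and 3289 in PR16wt and 8499 and 8631 in PR16EXON4wt (1.37 ± 0.03), Egr2 99.7 and 113 in PR16wt and 447 and 472 in PR16EXON4wt (2.104 ± 0.10) and Zfp36, which destabilises messages with AU-rich elements, 571 and 546 in PR16wt and 2161 and 2092 in PR16EXON4wt (1.93 ± 0.05). Jun, a partner of Fos, had 1664 and 1699 in PR16wt and 3505 and 3583 in PR16EXON4wt (1.08 ± 0.05), and the orphan nuclear receptor Nr4a1 904 and 857 in PR16wt and 2134 and 2118 in PR16EXON4wt (1.27 ± 0.05). All 34 listed genes were kept, 29 higher and 1 lower, with a median of 0.90. The lower one was Myc (200.4 and 185 in PR16wt and 166 and 140.4 in PR16EXON4wt), a call lost without PR16wt replicate 1 (-0.28), PR16wt replicate 2 (-0.39) or PR16EXON4wt replicate 2 (-0.21). Maff (299 and 292 in PR16wt and 279 and 263 in PR16EXON4wt), Nr4a2 (39.2 and 53.6 in PR16wt and 63.9 and 61.9 in PR16EXON4wt) and Nr4a3 (15.9 and 16.0 in PR16wt and 23.3 and 10.3 in PR16EXON4wt) were not called.

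Serum response factor acts on many immediate early and muscle promoters through the CArG box, a decamer of CC, then A or T bases, then GG. On both strands of the same 250 upstream bases it was found in 36 of 1766 genes called higher (2.04%), 22 of 1861 called lower (1.18%) and 135 of 9829 kept genes (1.37%). Among immediate early genes it was in 4 of 26 (15.4%), and among contraction genes in 6 of 26 (23.1%). The windows show a match in capitals for some members of both lists that were called higher. Nebl, Ldb3 and Myom1 of the contraction list also held a match and are not shown. Second matches in the windows of Dusp5 and Srf are left in lower case.
Egr2: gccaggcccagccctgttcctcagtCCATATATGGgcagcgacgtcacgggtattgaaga
Dusp5: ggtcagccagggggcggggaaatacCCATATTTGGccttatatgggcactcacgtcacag
Zfp36: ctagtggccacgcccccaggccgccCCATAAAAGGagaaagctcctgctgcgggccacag
Srf: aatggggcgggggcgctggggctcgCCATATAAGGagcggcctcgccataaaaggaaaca
Actc1: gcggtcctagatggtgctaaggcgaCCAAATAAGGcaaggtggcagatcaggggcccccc
Myl7: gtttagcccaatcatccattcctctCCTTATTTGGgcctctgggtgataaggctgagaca
Myl3: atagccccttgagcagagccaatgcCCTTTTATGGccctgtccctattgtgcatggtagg
They lie at chr10:67537772-67537831 (plus strand) for Egr2, chr19:53529038-53529097 (plus strand) for Dusp5, chr7:28379252-28379311 (minus strand) for Zfp36, chr17:46556210-46556269 (minus strand) for Srf, chr2:114052888-114052947 (minus strand) for Actc1, chr11:5898809-5898868 (minus strand) for Myl7 and chr9:110763568-110763627 (plus strand) for Myl3. Of these, Dusp5, a phosphatase of ERK kinases, had 300.0 and 312 in PR16wt and 582 and 574 in PR16EXON4wt (0.91 ± 0.08), and Srf, the factor that binds the box, 717 and 685 in PR16wt and 909.7 and 872 in PR16EXON4wt (0.35 ± 0.07). The GATA motif AGATAA was in 9 of 26 contraction promoters (34.6%) against 7.41% of all kept genes, and in 7.98% of genes called higher and 7.31% called lower. The share of genes with the motif TGACTCA, bound by AP-1, was 4.70% among those called higher, 3.76% among those called lower and 3.85% over all kept genes.

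Genes with the largest differences were named by a rule that took 15 in each direction among called genes with a mean of at least 50 no overlap between sets and 1 name that is no predicted gene model. Loci with several names, such as that of Lyz2, and predicted genes, of which some differ more, stand outside it. Of the 15 higher ones 4 were on the macrophage list, Ctss, Trem2, Cybb and Aif1. Clec7a, the receptor dectin-1 of myeloid cells, had 32.9 and 34.8 in PR16wt and 256 and 277 in PR16EXON4wt and differed by 2.94 ± 0.12 (adjusted p = 9.73e-19). Gpr34, a lipid receptor of macrophages and microglia, had 14.8 and 13.2 in PR16wt and 104 and 111 in PR16EXON4wt (2.86 ± 0.20), and Tlr7, an endosomal sensor of RNA, 35.0 and 26.3 in PR16wt and 139.9 and 123 in PR16EXON4wt (2.07 ± 0.18). F13a1, the clotting factor XIII subunit that macrophages make, had 313 and 354 in PR16wt and 1385 and 1394 in PR16EXON4wt (2.06 ± 0.06). Gpnmb, a lysosomal glycoprotein, had 21.2 and 17.9 in PR16wt and 129.8 and 123 in PR16EXON4wt (2.64 ± 0.27), against 4.96 and 12.1 in PR16KO and 212 and 198 in PR16EXON4KO. Of the 15 lower ones 4 were on the visceral endoderm lists, Apom, Apoa4, Cubn and Amn. Esr1, the estrogen receptor alpha, had 454 and 429 in PR16wt and 14.2 and 10.3 in PR16EXON4wt and differed by -5.08 ± 0.18 (adjusted p = 3.8e-20), and its values were 476 and 421 in PR16KO and 16.1 and 13.2 in PR16EXON4KO. Irs4, an insulin receptor substrate, had 311 and 327 in PR16wt and 11.2 and 12.4 in PR16EXON4wt (-4.65 ± 0.23). Trh, the precursor of thyrotropin-releasing hormone, had 677 and 727 in PR16wt and 35.5 and 48.5 in PR16EXON4wt (-4.05 ± 0.15), Slc13a4, a sulfate transporter, 797 and 715 in PR16wt and 37.5 and 44.4 in PR16EXON4wt (-4.18 ± 0.10), and F2, prothrombin, 103 and 103 in PR16wt and 7.10 and 1.03 in PR16EXON4wt (-4.68 ± 0.36). F2 was kept through PR16wt alone.

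Signalling pathways differed gene by gene. In the Hedgehog pathway Gli1 and Ptch1, both targets of the signal, had 216 and 227 in PR16wt and 111 and 100.1 in PR16EXON4wt (-1.07 ± 0.13) and 1278 and 1275 in PR16wt and 739 and 699 in PR16EXON4wt (-0.83 ± 0.06). The ligand Ihh, made by visceral endoderm, had 68.9 and 69.6 in PR16wt and 23.3 and 18.6 in PR16EXON4wt (-1.69 ± 0.21), while the co-receptors Gas1 (672 and 685 in PR16wt and 1216 and 1145 in PR16EXON4wt) and Boc (149 and 139 in PR16wt and 220.1 and 217 in PR16EXON4wt) were higher. Of 16 kept members 8 were lower and 3 higher, with a median of -0.25.

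Wnt genes held 13 lower and 6 higher members among 40 kept, with 2 kept through PR16wt alone. The 38 kept on values of both sets held 11 lower and 6 higher members. Fzd5, a receptor of visceral endoderm and epiblast, had 222 and 217 in PR16wt and 62.9 and 74.3 in PR16EXON4wt and was lower by -1.67 ± 0.15 (adjusted p = 3.18e-10). Frzb, a secreted antagonist, had 274 and 253 in PR16wt and 102 and 101 in PR16EXON4wt (-1.36 ± 0.12), while Sfrp1, another, had 2611 and 2585 in PR16wt and 3495 and 3420.3 in PR16EXON4wt and was higher (0.41 ± 0.04). Fzd4, a receptor of vessels, had 557 and 488 in PR16wt and 784 and 769 in PR16EXON4wt (0.57 ± 0.07).

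In the FGF pathway 9 of 21 kept members were lower and 3 higher, with 2 kept through PR16wt alone and 1 through PR16EXON4wt alone. The 18 kept on values of both sets held 7 lower and 2 higher members. Etv4 and Etv5, transcription factors induced by FGF, had 207 and 224 in PR16wt and 89.2 and 70.2 in PR16EXON4wt (-1.43 ± 0.15) and 389 and 429 in PR16wt and 214 and 222 in PR16EXON4wt (-0.90 ± 0.10). Fgfr4, a receptor of endoderm, had 63.6 and 89.3 in PR16wt and 12.2 and 18.6 in PR16EXON4wt (-2.25 ± 0.25), and Fgfr1 was close to equal at 1741 and 1744 in PR16wt and 1699 and 1746 in PR16EXON4wt. Dusp6, which switches ERK off, went the other way with 856 and 831 in PR16wt and 1148 and 1190.0 in PR16EXON4wt (0.47 ± 0.06).

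Retinoic acid genes went both ways. The degrading enzyme Cyp26a1 had 250.2 and 275 in PR16wt and 90.3 and 81.5 in PR16EXON4wt and was lower by -1.60 ± 0.18 (adjusted p = 2.14e-08), while its relative Cyp26b1 had 79.5 and 61.1 in PR16wt and 141 and 130.0 in PR16EXON4wt and was higher by 0.95 ± 0.22 (adjusted p = 0.000824). The binding protein Crabp2 had 347 and 340.5 in PR16wt and 182 and 194 in PR16EXON4wt (-0.87 ± 0.11). Of 18 kept members 5 were higher and 4 lower, with 1 kept through PR16EXON4wt alone, and 3 were higher without PR16wt replicate 1 or PR16EXON4wt replicate 2. Of 33 kept TGF-beta and BMP genes 10 were higher and 5 lower. The latency protein Ltbp1 had 1294 and 1258 in PR16wt and 1918 and 1897 in PR16EXON4wt (0.58 ± 0.05), and the pseudoreceptor Bambi 826 and 815 in PR16wt and 1125 and 1144 in PR16EXON4wt (0.47 ± 0.05). The 5 lower genes became 3, 2 and 2 without PR16wt replicate 1, PR16wt replicate 2 and PR16EXON4wt replicate 1. Among 21 kept Notch genes 8 were higher and 4 lower, or 2 lower without PR16EXON4wt replicate 1. Dll4, the ligand of arterial endothelium, had 48.8 and 67.7 in PR16wt and 139 and 116 in PR16EXON4wt (1.127 ± 0.24), and Hes1 was not called at 293 and 282 in PR16wt and 261 and 281 in PR16EXON4wt.

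Glucose transporter genes had large differences at high levels. Slc2a3, the transporter GLUT3 of early embryo and neurons, had 15947 and 15860.0 in PR16wt and 3442 and 3387 in PR16EXON4wt and was lower by -2.22 ± 0.03 (adjusted p = 1.61e-30). Slc2a1, the common transporter GLUT1, had 6110.1 and 5640.3 in PR16wt and 2906 and 2940.4 in PR16EXON4wt (-1.01 ± 0.04). Glycolytic enzymes moved less, with 9589.8 and 9203 in PR16wt and 6586 and 6302 in PR16EXON4wt for Pkm, the pyruvate kinase (-0.54 ± 0.04), and 6846 and 6885 in PR16wt and 5320.1 and 5336 in PR16EXON4wt for Ldha, lactate dehydrogenase (-0.37 ± 0.03). Of 31 kept genes of hypoxia and glycolysis 12 were lower and 7 higher, with a median of -0.17. Hk1 (441 and 431 in PR16wt and 643 and 610.0 in PR16EXON4wt) was higher and Hk2 (1282 and 1282 in PR16wt and 894 and 854 in PR16EXON4wt) lower, both hexokinases. Several glycolytic genes have processed copies, so fragments could have been split between loci.

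Among biosynthetic genes, more members were called lower than higher in the cholesterol, ribosome and cell cycle lists, with list medians of less than 1.5-fold. Psat1 and Asns, which make serine and asparagine, had 1506 and 1535 in PR16wt and 588 and 546 in PR16EXON4wt (-1.42 ± 0.06) and 862 and 796 in PR16wt and 318 and 303 in PR16EXON4wt (-1.41 ± 0.08). Of 21 kept genes of the unfolded protein and amino acid responses 10 were lower and 4 higher, with 1 kept through PR16wt alone, or 2 higher without PR16wt replicate 1 or either PR16EXON4wt library, and the chaperone Hspa5 was equal within its error (8575 and 8795 in PR16wt and 8722 and 8707 in PR16EXON4wt). Of 24 kept cholesterol genes 15 were lower (6 on FPKM values) and 1 higher, the latter lost without PR16wt replicate 2 or either PR16EXON4wt library, with a median of -0.30. Stard4, a sterol carrier, had 913 and 911 in PR16wt and 574 and 552 in PR16EXON4wt (-0.70 ± 0.06). Of 23 ribosome biogenesis genes 22 were lower and none higher, with a median of -0.42. Nop2, an RNA methyltransferase of the nucleolus, had 732 and 736 in PR16wt and 473 and 447 in PR16EXON4wt (-0.67 ± 0.07), and Ncl, nucleolin, 8559 and 9389 in PR16wt and 7068 and 6797 in PR16EXON4wt (-0.37 ± 0.04). Of 33 cell cycle genes 23 were lower and 1 higher, with a median of -0.19, where Mcm2, a subunit of the replicative helicase, had 2168 and 2045 in PR16wt and 1679 and 1596 in PR16EXON4wt (-0.36 ± 0.05) and Cdk1 1604 and 1668 in PR16wt and 1639 and 1636 in PR16EXON4wt. For ribosome biogenesis and the cell cycle, none of the calls passed a minimum fold of 1.5, and on FPKM values 7 and 4 genes were lower. The higher cell cycle gene was lost without PR16wt replicate 1 or PR16EXON4wt replicate 2.

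Imprinted genes, expressed from 1 parental copy, differed in both directions. Of 45 kept among 48 listed, 17 were higher and 13 lower, with a median of 0.14 and 1 kept through PR16wt alone. Grb10, an adaptor that restrains insulin signalling, had 3869 and 4129.8 in PR16wt and 1399.5 and 1408 in PR16EXON4wt and was lower by -1.51 ± 0.10 (adjusted p = 2.27e-13). Ndn, paternally expressed necdin, had 209.9 and 228 in PR16wt and 711 and 723 in PR16EXON4wt and was higher by 1.71 ± 0.09 (adjusted p = 1.82e-16). The locus that joins Snrpn and Snurf, in the same imprinted domain as Ndn, had 1442 and 1352 in PR16wt and 668 and 663 in PR16EXON4wt and was lower (-1.07 ± 0.06). H19 (49039 and 49935 in PR16wt and 79138 and 78754 in PR16EXON4wt) was higher and its neighbour Igf2 (29621 and 30160.0 in PR16wt and 24730.0 and 24542 in PR16EXON4wt) lower. Meg3 and Rian, maternal transcripts of another domain, were higher at 6895 and 6567 in PR16wt and 10488 and 10459 in PR16EXON4wt and 3841 and 3845 in PR16wt and 5885 and 5968 in PR16EXON4wt, and Dlk1, the paternal gene there, was lower at 10820.0 and 10727 in PR16wt and 8152 and 8092 in PR16EXON4wt. Among 35 kept genes for methylation of histone H3 at lysines 4 and 9, 11 were lower and 1 higher, or 6 lower without PR16EXON4wt replicate 2 and none higher without PR16wt replicate 1, with 837 and 801 in PR16wt and 624 and 608 in PR16EXON4wt for Suv39h1, a lysine 9 methyltransferase (-0.41 ± 0.07).

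Y-linked genes were present in all 4 wild-type libraries and higher in PR16EXON4wt. Kdm5d, a histone demethylase (chromosome Y, 897788 to 956786, plus strand), had 64.7 and 83.7 in PR16wt and 479.7 and 471 in PR16EXON4wt and differed by 2.67 ± 0.19 (adjusted p = 1.2e-12). Ddx3y, an RNA helicase, had 492 and 513 in PR16wt and 1029 and 989 in PR16EXON4wt (1.00 ± 0.12), Uty 187 and 211 in PR16wt and 389 and 446 in PR16EXON4wt (1.07 ± 0.17) and Eif2s3y 503 and 516 in PR16wt and 854 and 845 in PR16EXON4wt (0.74 ± 0.18). All 4 kept members of 8 listed were called higher. Each was at or near 0 in the PR16KO libraries, where Kdm5d had 0 and 0. In PR16EXON4KO Kdm5d had 538 and 492. Xist, the RNA of the inactive X chromosome, stayed below the limit of 10, with 6.36 and 8.46 in PR16wt and 4.06 and 5.16 in PR16EXON4wt. Of 7 kept genes of X inactivation or escape, 2 were lower and none higher by any of the 4 tools, with 1 kept through PR16wt alone, and 1 was lower without PR16wt replicate 2 or PR16EXON4wt replicate 2.

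A few loci were present in one set and nearly absent in the other. Loci of at most 5 in both libraries of one set and at least 100 in both of the other numbered 7, a limit chosen after the values were seen. Pga5 and Amn were among those high in PR16wt. Pga5 (chromosome 19, 10668956 to 10678071, minus strand), a pepsinogen, had 209 and 223 in PR16wt and 0 and 0 in PR16EXON4wt, lower by at least 141-fold when PR16EXON4wt is put at a floor of 3 fragments for the set. For Amn, whose values stand with the uptake genes, the ratio was 76 (95% exact interval 29.4 to 281, counting error only). A further 4 were high in PR16EXON4wt and were no lineage genes. Gm10288, a processed pseudogene on chromosome 3, had 0 and 0 in PR16wt and 173 and 164 in PR16EXON4wt, at least 113-fold higher against the same floor. Gm4735, a processed pseudogene on chromosome 2, had 0 and 0.941 against 125 and 115. Gm26619, a long non-coding RNA gene, and Gm10260, annotated as protein-coding on the other strand, overlap on chromosome 13 (97751112 to 97760965 and 97760072 to 97760632), so their fragments cannot be told apart without strand. Gm26619 had 0 and 1.88 against 465 and 483, and Gm10260 2.12 and 4.70 against 524 and 508. For these 4 the PR16KO libraries were between 0 and 5.50 and the PR16EXON4KO libraries between 101 and 616, each on the side of its own control. H2-T10 of the major histocompatibility region, annotated as a polymorphic pseudogene, was similar at 0 and 1.88 against 52.7 and 43.4. Its values were 0 and 0 in PR16KO and 35.9 and 48.8 in PR16EXON4KO.

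**Figure D4:**
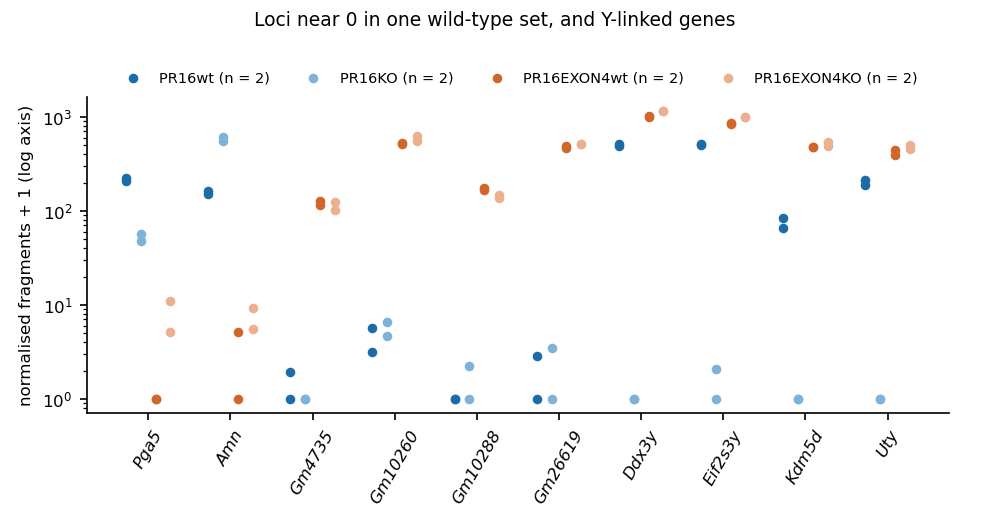
Normalised fragments plus 1 (y axis, log scale) in all 8 libraries for 6 loci near 0 in 1 wild-type set and for 4 Y-linked genes. Points are single libraries, 2 a group; the 4 predicted genes are near 0 in PR16wt and PR16KO and above 100 in both PR16EXON4 groups, while Y-linked genes are near 0 only in PR16KO.

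Apart from chromosome Y (median 1.07 over 5 kept loci), the median difference between the wild-type sets was highest on chromosome 8. Of its 815 kept loci 35.7% were called higher in PR16EXON4wt and 6.63% lower, with a median difference of 0.183. Medians of the other autosomes lay between -0.112 (chromosome 6) and 0.0687 (chromosome 19). The median was above 0 in each of 13 bins of 10 Mb along chromosome 8, from 0.0769 to 0.310. It was 0.183 over its 779 loci in no gene list and 0.202 over 242 loci with a mean of at least 500. Relative to the mean of the wild-type libraries, the chromosome's median was -0.101 and -0.0836 in PR16wt and 0.0920 and 0.0951 in PR16EXON4wt. In the knockouts it was -0.272 and -0.268 in PR16KO and -0.245 and -0.236 in PR16EXON4KO. Chromosome 19 had the same order, with -0.0487 and -0.0285 in PR16wt, 0.0428 and 0.0360 in PR16EXON4wt, -0.216 and -0.245 in PR16KO and -0.113 and -0.0907 in PR16EXON4KO. The called loci with the smallest adjusted p on chromosome 8 were Ier2 and Junb, both immediate early genes, and Lpl, lipoprotein lipase. Lpl had 632 and 629 in PR16wt and 1299 and 1314 in PR16EXON4wt (1.05 ± 0.05). Copy number was not measured, and its part in these medians was not tested.

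**Figure D5:**
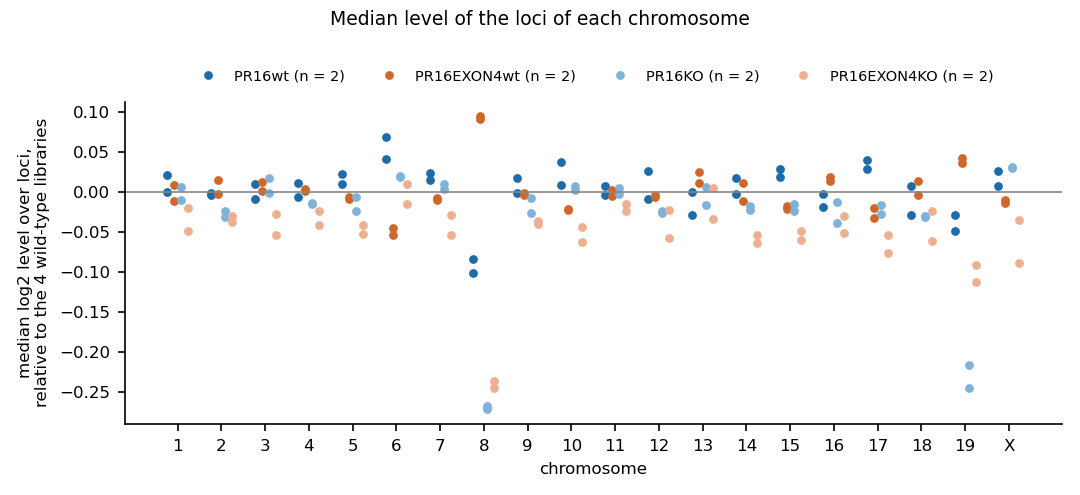
Median log2 level (y axis) over the kept loci of each chromosome (x axis), relative to the mean of the 4 wild-type libraries; each point is 1 library. On chromosome 8 the PR16EXON4wt libraries lie at 0.0920 and 0.0951, above PR16wt at -0.101 and -0.0836, and both knockouts lie below their controls.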

How the data were processed

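RNA was extracted with Trizol and RNeasy columns and sequenced from TruSeq libraries, per the labels' protocols. The genome build mm10 and the tools Cufflinks 2.2.1, deepTools, SAMtools 1.5 and TopHat2 2.1.1 are listed, with no role or order, per the submitters' processing notes. The annotation release is not given in the sources used, nor is the strand setting, and overlapping and antisense genes cannot be told apart. The main values are a deposited signal, which per the file headers and the numbers themselves is the fragments of a locus over a size factor of the library. Divided by 1 step per library, 99.996 to 100% of values were whole within 0.1, which recovers the fragments. The authors also deposited FPKM values, used in an alternative only. Fragments on the 787 loci with no name were 1.88 to 2.53% of the total and were left out. Of 16101 kept loci, 1033 carry 2 or more gene names, and their value belongs to no single gene. Positions were taken for 15919 loci.

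Groups and replicate numbers came from the titles. All 8 libraries entered a limma-trend fit (limma 3.58.1, R 4.3.3) of 4 group means on log2(value + 1), with 4 residual and 25.6 prior degrees of freedom, and the contrast was PR16EXON4wt minus PR16wt. On the recovered fragments edgeR 4.0.16 (quasi-likelihood) called 5650 loci, as an alternative. Same-numbered libraries did not deviate together (correlation 0.0134 between the wild-type sets), so the numbers were not taken as pairs. On simulated data for this comparison (16101 loci) limma recovered 27, 40, 44 and 50 of 50 loci changed 1.25-, 1.5-, 2- and 4-fold and called 12 of 15901 unchanged ones. The changed loci were drawn without the lowest loci, so these rates do not cover low genes. Far fewer loci were changed there than were called in the data.

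The members, lists and tests were chosen with earlier results of these data known. Named genes were Prdm16, Mecom, Xist and Y-linked genes, the 15 largest called differences per direction with a mean of at least 50, no overlap and 1 name that is no predicted model, up to 3 called loci of chromosome 8 and, from each list, up to 6 called genes per direction with the smallest adjusted p, up to 3 not called and the 2 most abundant. Some genes that this rule names are not reported here. Genes named from motif matches, Nppa, the predicted genes and H2-T10 were picked with their values in view. The CArG box, the motif that starts with GTTAAT and CAAAGTCCA were added to the motifs after the values were seen; the last was in 0.566% of genes called higher and 0.591% called lower. Promoters are from RefSeq (GRCm38.p6). Intervals and floors hold for counting error alone, because without molecular identifiers 2 fragments may stem from 1 molecule.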

Additional observations from a re-analysis of the deposited data

How the results depend on the processing

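The number of called loci stayed within 1.5 times of 5435 under 17 of 20 alternatives. The exceptions were the DESeq2 Wald test, with 3403 called (1793 higher and 1610 lower), log2(FPKM + 1), with 1763 (859 and 904), and a minimum fold of 1.5, with 748 (327 and 421). Leaving out 1 library gave 4062 to 4207 called loci, with 1951 to 2182 higher and 2025 to 2111 lower. With the replicate number as a block, 5385 loci were called, 2671 higher and 2714 lower, and no call of a named gene was lost. Without a filter 4720 loci were called.

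Of 48 lists, 41 kept the sign of their median under all 20 alternatives. The 7 others were neural progenitor, erythroid, mast cell, Hox, germ cell, Notch and heat shock genes, and the neural progenitor median was 0.0147 with a value of at least 50 in 2 libraries.

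Of 202 genes with values here, 176 were called, and none had the opposite sign under any of the 20 alternatives. Calls lost numbered 73 with a minimum fold of 1.5, 30 on FPKM values, 6 by DESeq2 (Hoxb4, Myb, Myc, Pax6, Prdm6 and Sox17), 4 to 6 without 1 library, 3 with no filter and at most 1 under the others. Atp2a2, not called at 0.11, was called under 7 alternatives. Low counts limit Hoxb4, Myb, Thy1 and Prdm16, and with 2 libraries a set a difference that was not called is not shown to be absent. Scaling did not move the median of all loci by 0.1. The median of chromosome 8 was 0.139 to 0.199 over the alternatives, and the highest median of another autosome 0.057 to 0.0898.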

Other observations

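More epithelial genes were called lower than higher in PR16EXON4wt. Of 23 kept surface ectoderm and epithelial genes 11 were lower in PR16EXON4wt and 3 higher, with a median of -0.31. The share called higher was under the 16.7% over all loci. Krt18, a keratin of simple epithelia, had 3148 and 3148 in PR16wt and 2153 and 2193 in PR16EXON4wt (-0.53 ± 0.04), and Cldn6, a tight junction protein of early epithelia, 2247 and 2067 in PR16wt and 1388 and 1388 in PR16EXON4wt (-0.63 ± 0.05). Epcam, an epithelial adhesion molecule, had 1152 and 1063 in PR16wt and 715 and 779 in PR16EXON4wt and was lower by -0.57 ± 0.06 (adjusted p = 1.82e-08). Krt7 (208 and 229 in PR16wt and 375 and 360.2 in PR16EXON4wt) and Grhl3, a regulator of surface ectoderm (163 and 169 in PR16wt and 297 and 284 in PR16EXON4wt), were higher by 0.75 ± 0.09 and 0.80 ± 0.10. Of 10 kept trophoblast and extraembryonic ectoderm genes 8 were lower and 1 higher, with 3 kept through PR16wt alone, and 5 were lower without either PR16wt library or PR16EXON4wt replicate 2. The 7 trophoblast and extraembryonic ectoderm genes kept on values of both sets held 5 lower and 1 higher member, with a median of -0.936. Rhox5, an X-linked homeobox gene, had 77.4 and 69.6 in PR16wt and 19.3 and 9.29 in PR16EXON4wt (-2.37 ± 0.24).

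Of 11 kept genes of intermediate mesoderm and kidney 5 were lower and 3 higher, with 2 kept through PR16wt alone, and 1 was higher without either PR16wt library or PR16EXON4wt replicate 2, and 3 lower without PR16wt replicate 2 or PR16EXON4wt replicate 2. The 9 kept on values of both sets held 4 lower and 3 higher members. Wt1, a zinc finger factor that epicardium also expresses, had 218 and 276 in PR16wt and 396 and 387 in PR16EXON4wt and was higher by 0.67 ± 0.09 (adjusted p = 1.9e-07), while Cited1 had 217 and 217 in PR16wt and 47.7 and 28.9 in PR16EXON4wt and was lower by -2.52 ± 0.20 (adjusted p = 7.39e-12). Brown fat and adipogenic genes, a programme PRDM16 is known for, were kept for 10 of 17 listed. Ucp1, Cidea, Elovl3, Adipoq and Plin1, markers of brown or mature fat cells, were at 0 to 1.06 in the wild-type libraries and were not kept. Of the 10 kept, 7 were higher and 1 lower, with a median of 0.88 and 1 kept through PR16EXON4wt alone. The 9 kept on values of both sets held 6 higher and 1 lower member. Pparg, a main regulator of fat cells, was not called (-0.06 ± 0.39). Cebpa, a factor of fat cells and of myeloid cells, had 26.5 and 20.7 in PR16wt and 69.0 and 68.1 in PR16EXON4wt (1.51 ± 0.22), and Ppargc1a, a co-activator of mitochondrial genes, 25.4 and 20.7 in PR16wt and 64.9 and 53.7 in PR16EXON4wt (1.33 ± 0.24). Without PR16EXON4wt replicate 2, 4 of the 10 were higher. Of 28 kept interferon and antigen presentation genes 6 were higher and 5 lower, with 2 kept through PR16EXON4wt alone, and 3 were higher without PR16EXON4wt replicate 1. The 26 kept on values of both sets held 5 higher and 5 lower members, near the 16.7% and 17.0% called over all loci, so the list showed no difference as a whole. B2m, the light chain of class I molecules, had 1052 and 980.0 in PR16wt and 1784 and 1754 in PR16EXON4wt (0.80 ± 0.05), while H2-K1, a class I heavy chain with close copies, had 338 and 317 in PR16wt and 227 and 238 in PR16EXON4wt (-0.49 ± 0.09). Of 13 heat shock genes 5 were lower and 3 higher, or 2 lower without PR16wt replicate 2, with 24119 and 24424 in PR16wt and 20180.0 and 20188 in PR16EXON4wt for Hsp90ab1 (-0.27 ± 0.03).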
